A study of Mus musculus with 44 samples.

Results

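Joins with 1 to 9 inserted bases are translocation junctions in which the read holds a short stretch between the last base aligned to the bait break and the first base aligned to the prey, in bases that neither alignment covers. They were chosen by position alone: among the 148726 junctions of 32 HTGTS libraries, 133105 lay on chromosomes 1 to 19, X or Y more than 10 kb from the bait, and 13970 of these, or 10.5%, had an insertion of 1 to 9 bases. The insertion length was thus what selected them, and it is given as a description. Just inside the limits were 5087 joins with 1 inserted base and 611 with 9, and just outside were 29260 blunt joins with 0 and 493 with 10.

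HTGTS (high-throughput genome-wide translocation sequencing) reads outward from one fixed double-strand break, the bait, and maps whatever sequence has been joined to it, the prey. All libraries came from mouse embryonic fibroblasts (MEFs) of the C57BL/6 strain labelled wild type. In 26 libraries the bait was cut by AsiSI, a rare-cutting restriction enzyme fused to an estrogen receptor domain, expressed with doxycycline for 24 h and moved to the nucleus by 4-hydroxytamoxifen (4OHT) for the last 6 h, which also cuts other AsiSI motifs in the genome. These were 6 pairs of CK-666 (ARP2/3 inhibitor, 100 µM) and DMSO, 3 pairs of NU7441 (DNA-PKcs inhibitor, 10 µM, with 1 h of pretreatment) and DMSO, 2 pairs of wiskostatin (WASP inhibitor) and DMSO, and 2 pairs of actin R62D-NLS (a nuclear actin that cannot polymerize) and empty vector. In the other 6 libraries the same locus was cut with Cas9 for 48 h, in 3 pairs of CK-666 and DMSO, whose labels name 4OHT as well. The 13 AsiSI-bait libraries that received DMSO or empty vector are called the control libraries here, and they held 6234 of the insertion joins. The labels do not say that replicates came from separate animals, so the tests measure the spread between libraries.

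Broken ends are mostly rejoined by non-homologous end joining, in which Ku and DNA-PKcs hold the ends and DNA ligase IV seals them. Bases that match neither partner are a known mark of this pathway, since polymerases mu and lambda can add or fill in a few nucleotides at an end before ligation. Alternative end joining, which involves polymerase theta, can leave short inserts copied from sequence near the break, in the same or in the opposite orientation. AsiSI leaves a 3′ overhang, whereas Cas9 leaves mostly blunt ends, so the 2 baits offer different ends to the same joining machinery.

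The bait reference and 3 recurrent joins are shown first because the ends and the direction of the prey decide most of what follows. The bait lies on GRCm38 chr2:13271302-13271331, plus strand, in an untranslated region of Rsu1 (ENSMUSG00000026727), and the AsiSI motif is in capitals.
Bait: acacaccctgtcccaGCGATCGCgcaggcg
AsiSI leaves the bait top strand ending after GCGAT of the motif, and Cas9 cuts after position 13271323. Bait bases lost are counted from these ends, and a negative number means that the bait alignment runs past the cut. In the reads below the bait and the prey are in lower case and the insert is in capitals.
Join of the chr2:20968930-20968937 motif, read: cccagcgatcgcCGAgcgcgagcag
The same motif, reference with the motif in capitals: ctcccgcgcccGCGATCGCcgagcgcgaga
Join of the chr7:44246794-44246801 motif, read: cccagcgatcgcCACAGgcgcgcgcta
The same motif, reference with the motif in capitals: gcgcgcctgtgGCGATCGCgtgtgaggtga
Join of the chr1:64121475-64121482 motif, minus strand, read: caccctgtcccaAatcgcgagaaaaaa
In the first pair the insert CGA stands in the reference directly after the motif, and the prey alignment then starts at 20969001 on the minus strand and runs back toward the motif. In the second pair the insert is the reverse complement of the bases directly before the motif. In the last read the prey keeps its own AT overhang and a single A separates it from a bait that has lost 5 bases.

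Depth and prey content differed among libraries, and some libraries stood apart. Retained joins per library ranged from 335 to 17479 with a median of 3611.5, and insertion joins from 19 (CK-666 replicate 2, AsiSI bait) to 1256. Among insertion joins, reads with 3 or more telomeric repeat units in a row after the bait made up 71.7% in Cas9 DMSO replicate 2, 74.9% in Cas9 CK-666 replicate 2 and 67.2% in NU7441 replicate 2, against at most 11.5% in the other 29 libraries. In Cas9 DMSO replicate 2, 276 of 1080 insertion joins had the same bait end and the same insert and mapped to 272 prey positions on 21 chromosomes. Of these, 237 were telomeric by the same count. The read with the most frequent prey stretch among these is shown with the insert in capitals.
Telomeric join, read: gcgatcgcAGGCAGcctaaccctaaccc
Comparisons that use these libraries are given with and without telomeric joins.

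Insertion joins were a minor class in every AsiSI-bait library. Their share of retained joins in the 13 control libraries had a lowest value of 5.92% (95% Wilson interval 4.90 to 7.13), a median of 8.03% and a highest value of 14.8% (13.8 to 15.8). Most libraries lay close together, and NU7441 control replicate 1 was highest. In that library 54.8% of insertion joins fell in repeat windows, which are the 79 prey windows of 10 kb far from any motif that hold 20 or more joins over the Cas9 libraries. The intervals cover counting error only.

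**Figure D1:**
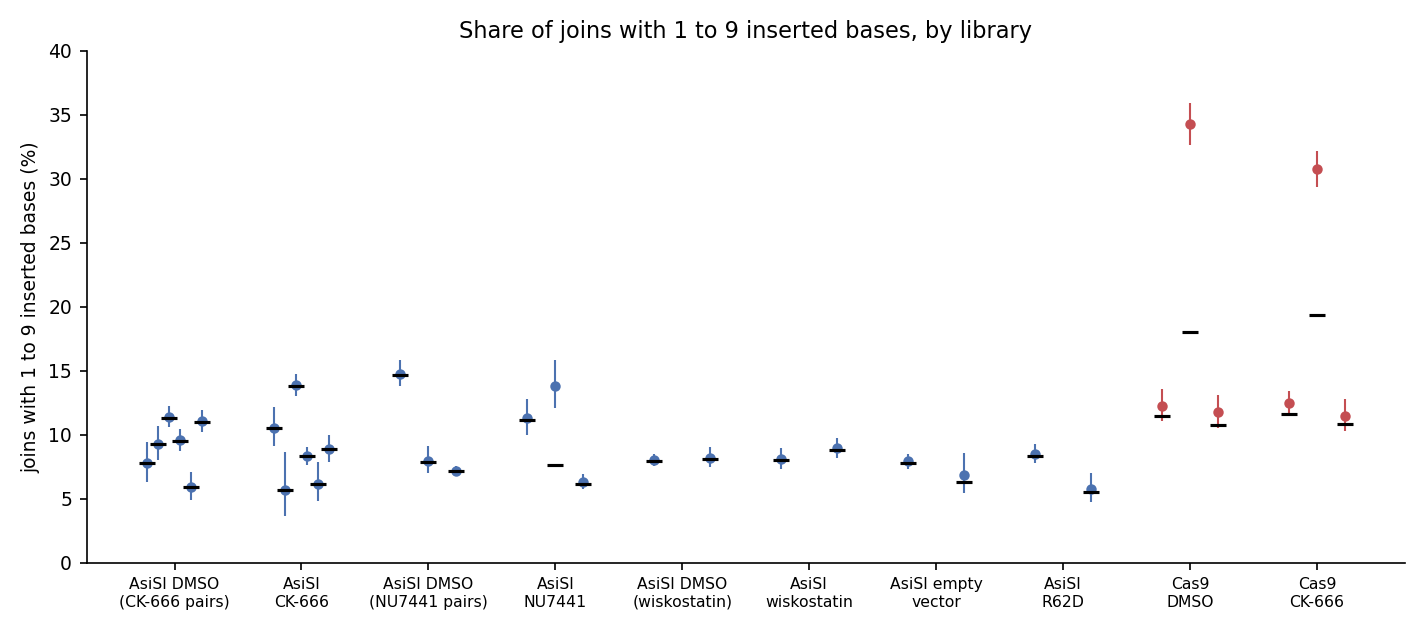
Share of retained joins with 1 to 9 inserted bases (y axis, %) in each of the 32 libraries, grouped by bait and treatment (x axis). Points are libraries with 95% Wilson intervals, and black dashes give the share after joins to telomeric repeats are left out. Cas9 replicate 2 stands at 34.2% under DMSO and 30.7% under CK-666, and at 18.01% and 19.3% without telomeric joins.

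The most frequent insertion was a single base. In the control libraries 1-base insertions made up 36.2% ± 8.54 (SD, n = 13) of insertion joins, 2 bases 15.7% ± 2.26 and 3 bases 11.5% ± 1.77, and each length from 7 to 9 made up 4.67% to 5.16%. The mean length per library ran from 2.50 to 4.18 bases. The aligner sets limits on what can be called an insertion: in 0 of 13970 joins did the first inserted base equal the next base of the bait reference, and in 0 did the last inserted base equal the base before the prey. A 1-base insertion and a 1-base substitution at the join are therefore the same observation. A mismatch in the last 10 aligned bait bases was found in 10.03% ± 5.89 (SD, n = 13) of insertion joins and 2.41% ± 1.06 of blunt joins. It was found in 5.44% ± 3.23 of direct motif insertions and 21.9% ± 16.1 of those at other prey outside repeat windows and telomeric reads. Its part in the results was not tested beyond leaving such joins out.

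Prey at AsiSI motifs, meaning under 500 bp from a motif other than the bait, split into 2 structures. In the first, here called direct, the prey sequence leads away from the motif, as a broken end would. In the second, here called inverted, the prey alignment starts outside the motif and is directed back toward it. Among insertion joins at motifs in the control libraries the inverted share was lowest at 15.9%, with a median of 46.5% and a highest value of 66.1%, whereas among blunt joins at motifs it ran from 0.782% to 6.19%. The 2 ranges did not overlap, but inverted prey were not particular to insertions. Over all motif joins of the control libraries, whatever the class of join, 8692 of 47901 were inverted. The inverted share was 93.2% ± 5.50 (SD, n = 13) among motif joins with 10 to 30 inserted bases and 15.1% ± 6.53 among those with a bait and prey overlap of 1 to 5 bases. The direction of the prey was noticed in these data, so these shares are given without a test.

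Inverted insertion joins had a regular layout. The 1238 inverted joins of the control libraries started a median of 51 bp from the motif edge (quartiles 39 and 71), and 1071 of them (86.5%) ended before reaching the motif, with a median gap of 6.5 bp. Their bait usually carried the whole motif: in 66.5% ± 8.31 (SD, n = 13) the bait alignment ran 3 to 5 bases past the cut, against 2.53% ± 2.96 of direct insertion joins. In 862 the bait ran at least 3 bases past the cut. In 812 of these (94.2%) every base between the cut and the prey start equalled the second part of the prey motif followed by its own flank, and in 856 it did so with at most 1 mismatch. Read outward, such a read therefore holds bait, restored motif, a few bases of prey flank, and then the opposite strand of the same flank. In those 812 joins the insert was thus reference sequence from beside the prey motif.

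**Figure D2:**
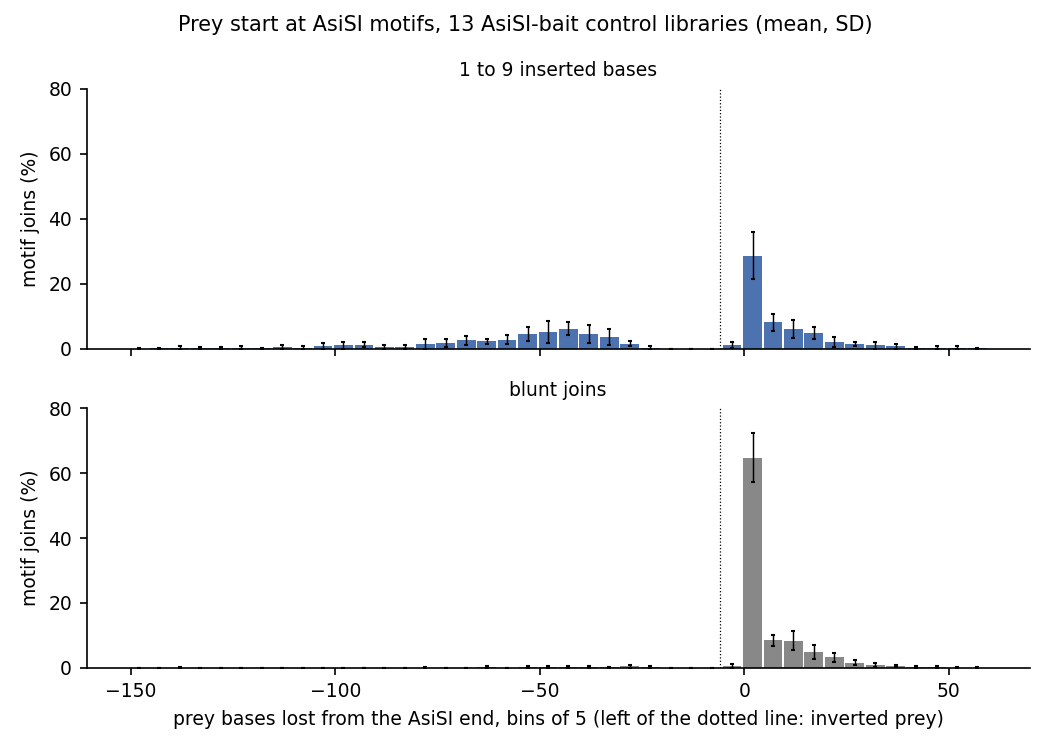
Prey start at AsiSI motifs in the 13 control libraries, in bins of 5 bases (x axis, prey bases lost from the AsiSI end, negative to the left), as percent of motif joins in each library (y axis, mean and SD). Insertion joins (top) have a broad group left of the dotted line, the inverted prey, with a median start 51 bp from the motif edge. Blunt joins (bottom) are gathered at the cut end.

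The same inverted joins came up in different libraries. Among insertions of 2 or more bases at motifs, 148 of 660 distinct inverted joins (same bait end, insert, prey position and strand) were found in more than 1 control library, and they held 50.2% of the 1035 such joins. For direct joins 7 of 951 were shared and held 1.97% of 966 joins. The CGA join shown above was found 15 times in 12 of 13 control libraries over 6 sequencing runs, and the CACAG join 10 times in 10 libraries. A join with insert ATT at chr2:157135295-157135302, was found 12 times in 11 libraries, and one with insert GCGC at the Dnmt3b motif, 13 times in 9 libraries. The direct join in the most control libraries, found in 6 libraries, also had insert CGA at chr2:20968930-20968937, with the bait 3 bases past the cut and a prey starting 34 bases from the AsiSI end.

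Length separated the structures. Direct insertion joins at motifs had a mean length of 2.04 ± 0.295 bases (SD, n = 13), with 57.5% ± 5.98 at 1 base and 18.9% ± 3.59 at 2. Inverted joins had a mean of 4.67 ± 0.268 bases with 16.5% ± 4.81 at 1 base and 10.8% ± 3.55 at 9 bases. Prey elsewhere in the genome lay between, at 3.30 ± 0.530 bases. With all motif joins counted, insertions at motifs and at other prey differed in mean length by -0.14 bases, shorter at motifs in 7 of 13 libraries. With inverted joins left out the difference was -1.26 bases, shorter at motifs in 13 of 13 libraries. Length chose the joins and inverted joins were set apart after their values were seen, so no test is given for length here or in the comparisons that follow.

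**Figure D3:**
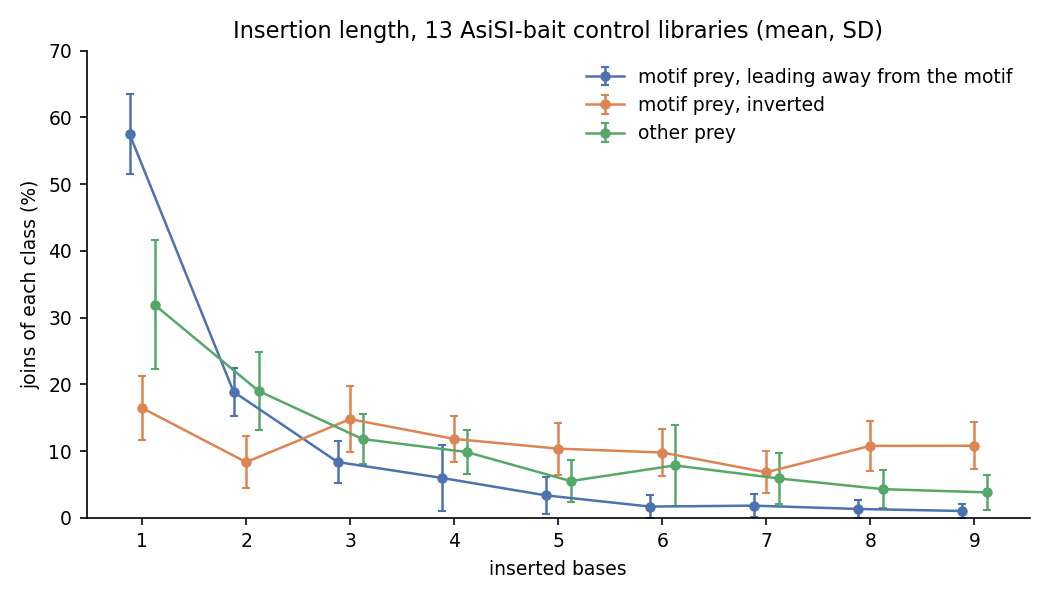
Insertion length (x axis, bases) as percent of each class (y axis, mean and SD over 13 control libraries) for direct motif prey, inverted motif prey and other prey. Direct motif joins fall from 57.5% at 1 base to 1.03% at 9, whereas inverted joins stay between 6.82% and 16.5% at every length.

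Direct insertion joins less often kept the bait to within 2 bases of the cut than blunt joins did. The share with exactly 0 bait bases lost was not lower, at 11.6% ± 5.34 of direct insertion joins and 10.1% ± 2.68 of direct blunt joins. Among blunt direct motif joins, 62.2% ± 5.68 (SD, n = 13) had lost 0 to 2 bait bases, that is, at most the AT overhang, with 30.3% ± 6.56 at exactly 2. Among direct insertion joins this share was 36.0% ± 8.70, and 37.5% ± 11.1 had lost 3 to 9. Losses of 10 or more bait bases were found in 21.02% ± 6.66 of direct insertion joins and 16.3% ± 4.63 of blunt ones. Over all prey and both structures, 12.6% ± 4.50 of insertion joins and 13.9% ± 3.89 of blunt joins had lost 10 or more bait bases, and the difference did not pass (-1.25 percentage points, lower in 7 of 13 libraries, adjusted p = 0.391, exact sign-flip test). No more than 0.701% of insertion joins in any control library had lost 20 or more. Direct blunt joins fell off as well, to a mean of 0.107% at 19 bases lost and 0.0133% at 20. Reads start at a primer close to the cut, so bait losses that reach the primer cannot be read. These shares therefore do not measure how frequent long bait losses were.

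**Figure D4:**
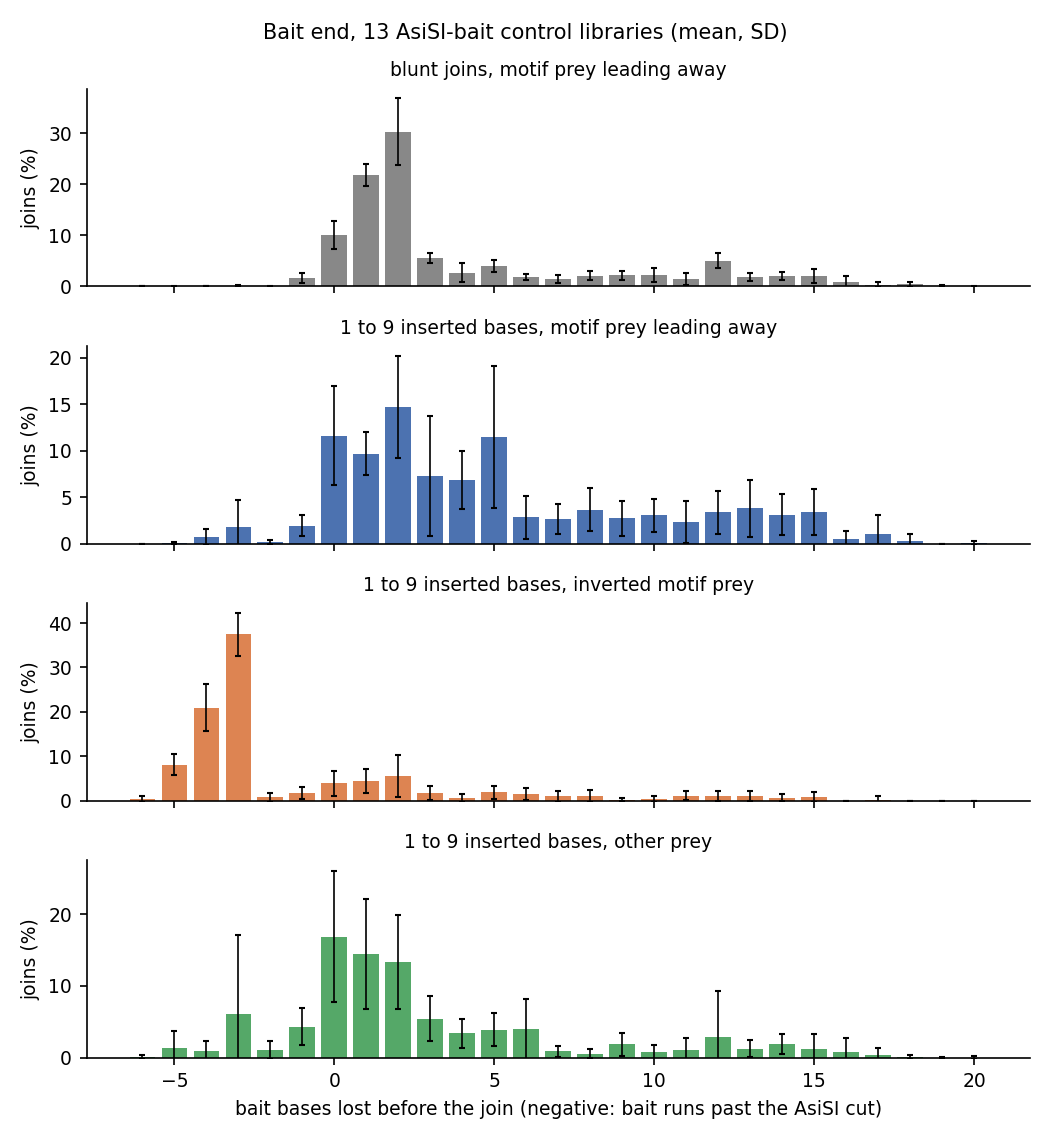
Bait bases lost before the join (x axis) as percent of joins (y axis, mean and SD over 13 control libraries) for blunt direct joins, direct insertion joins, inverted insertion joins and insertion joins at other prey. Blunt joins peak at 2 lost bases with 30.3%, direct insertion joins have a second peak of 11.5% at 5, and inverted joins peak 3 to 5 bases past the cut, which together hold 66.5%.

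On the prey side the answer turned on whether inverted joins were counted. With all motif joins counted, 18.8% of insertion joins and 23.1% of blunt joins had lost 10 or more prey bases, a difference of -4.29 percentage points (lower in 10 of 13 libraries, two-sided exact sign-flip test, p = 0.0227, adjusted p = 0.0454). The call was lost without any 1 of 9 libraries (replicates 1, 2, 3, 4 and 6 of the CK-666 DMSO controls, replicate 3 of the NU7441 controls, both empty vector libraries and replicate 1 of the wiskostatin controls), at -4.56 to -3.70 points and adjusted p of 0.0527 to 0.0908. Inverted prey have no end loss in this sense and enter the first share as losing none. With them left out from both classes, 32.6% ± 5.53 (SD, n = 13) of insertion joins and 23.9% ± 7.01 of blunt joins had lost 10 or more. The difference was 8.71 points in the other direction, higher in 12 of 13 libraries. Leaving them out removes far more insertion joins than blunt ones and so raises the insertion share by its construction. Inverted joins were also set apart after their values were seen, so no test is given for this setting. Both ends were near intact, with 0 to 2 bases lost on each, in 8.68% ± 3.87 of direct insertion joins and 32.4% ± 9.40 of direct blunt joins.

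**Figure D5:**
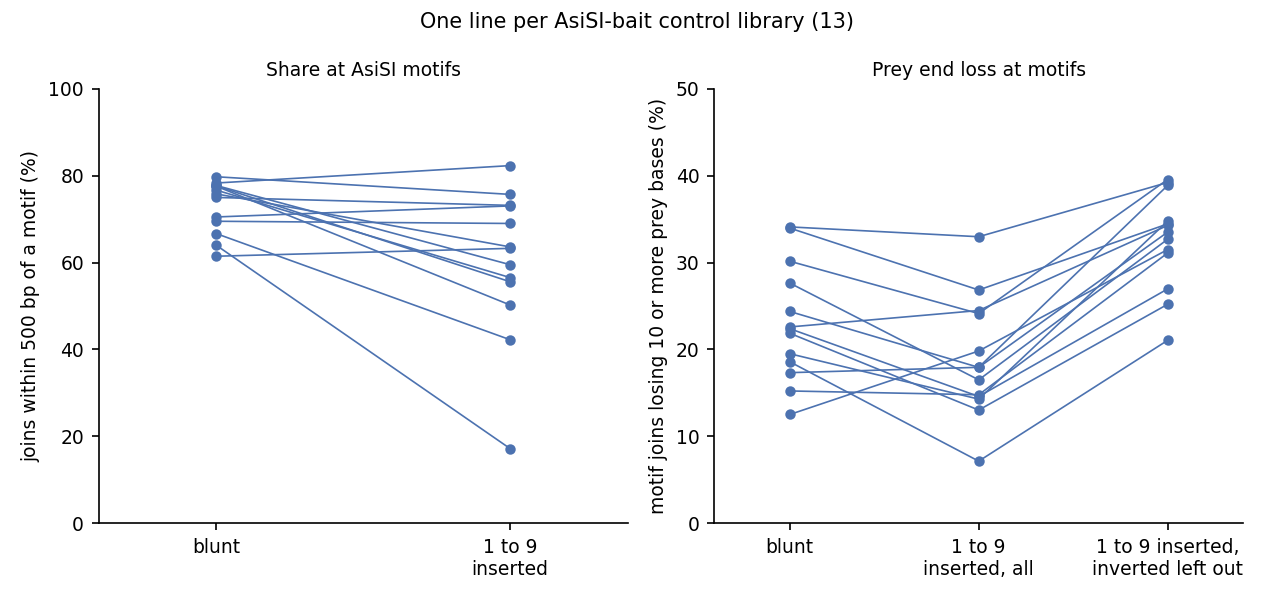
Left: percent of joins within 500 bp of a motif (y axis) for blunt and insertion joins, 1 line per control library (13). Right: percent of motif joins that lost 10 or more prey bases, for blunt joins, all insertion joins and insertion joins without inverted prey. Left, the lines fall in 10 of 13 libraries, and right, the mean goes from 23.1% to 18.8% and to 32.6%.

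One combination of ends and insert recurred among direct joins. A bait that had lost 5 bases, a single inserted A and a prey that kept its AT overhang were found together in 117 of 2350 direct insertion joins (4.98%), in 12 of 13 control libraries and at 63 motifs. The chr1:64121475-64121482 read above is one of these. Per library it made up 0% to 21.7% of direct insertion joins, with a median of 5.93%. The next most frequent combinations also kept the whole prey end, with A after a loss of 14 (32 joins), C after a loss of 12 (29 joins) and A after a loss of 15 (28 joins).
Loss of 14, chr1:133131824-133131831 motif: gcaggaacacacAatcgcacgcctgct
Loss of 12, chr1:133131824-133131831 motif, minus strand: aggaacacacccCatcgccgaaggaag
Loss of 15, chr11:43836462-43836469 motif, minus strand: agcaggaacacaAatcgctgggcggag
These ends were used by blunt joins too: 240 of 10608 direct blunt joins (2.26%) had lost 5 bait bases and 0 prey bases, and 333 (3.14%) had lost 12 and 0.

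Base composition differed with the structure. Inserted bases of inverted joins were 64.3% ± 4.23 G or C (SD, n = 13), and the first 20 reference bases of their prey were 75.5% ± 1.22. Inserted bases of direct motif joins were 50.3% ± 4.09 G or C, although the first 20 bases of their prey were 67.8% ± 1.499. By the aligner rule above, an insert cannot begin with the next bait base. That base is C with 0 lost, T with 1, A with 2 and G with 5. An insert also cannot end with the base before the prey. The part of this rule in the G and C shares was not tested. At other prey the inserts were 48.5% ± 5.66 G or C and the prey 45.2% ± 4.75. With all motif joins counted, inserts at motifs were richer in G and C than inserts at other prey by 10.4 percentage points (higher in 11 of 13 libraries, exact sign-flip test, adjusted p = 0.00586). Without inverted joins the difference was 1.72 points, higher in 8 of 13 libraries. Inverted joins were set apart after their values were seen, so no test is given for this setting.

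Single inserted bases followed the rule of the aligner. Over the control libraries the 2485 single-base insertions were 779 A, 633 T, 576 C and 497 G. With 0 bait bases lost the next bait base is C, and the 460 insertions there held 168 A, 164 G and 128 T. With 2 lost the next base is A, and C was the most frequent of the 414, at 194. With 5 lost, where the next base is G, 140 of 182 were A. Among direct motif joins A made up 41.2% ± 7.51 (SD, n = 13) of single insertions, and among other prey T was most frequent at 32.6% ± 11.2.

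Longer inserts repeated less. At 2 bases TG led with 108 of 1045, followed by AA (89), TC (80), AC (74) and CT (69), and TG was found in 0 inverted joins. At 3 bases CGA led with 36 of 703, of which 23 were inverted, followed by ATT (29, 18 inverted), TGA (24, 0 inverted), ACC (21) and CGC (20). At 4 to 9 bases the 5 leading inserts were GCGC (23 of 2001, 21 inverted), CGGCGGCT (16, all inverted), GCGCC (15, 14 inverted), ATGAGCCGT (14, all inverted) and ACCCT (12, 8 inverted). These 8-base and 9-base inserts were found in 9 libraries each at 2 and 3 prey positions.

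Inserts of 7 to 9 bases were searched for in the reference around their own prey. The opposite strand within 50 bp of the prey start held 172 of 360 inserts of inverted joins (47.8%), and the same window shifted by 2 kb held 0. Inverted insertion joins started a median of 51 bp from the motif edge, so this window often stopped short of the bases beside the motif. For direct motif joins 3 of 97 were found on the opposite strand and 7 on the same strand, against 0 and 1 in the shifted window, and the bait side held 7 on its own strand. For other prey without telomeric reads 8 of 351 (2.28%) were on the opposite strand and 32 (9.12%) on the same strand, against 1 and 3 in the shifted window. The bait side held 10 of those 351 on its own strand. A match of this length is a description and names no mechanism.

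Insertion joins fell at AsiSI motifs less often than blunt joins. In the control libraries the share of insertion joins at motifs had a lowest value of 17.2%, a median of 63.3% and a highest value of 82.4%, and that of blunt joins ran from 61.5% through 75.8% to 79.8%. The mean difference was -13.0 percentage points, lower in 10 of 13 libraries (exact sign-flip test, p = 0.00928, adjusted p = 0.0278). NU7441 control replicate 1, with a difference of -46.8 points, was farthest. With inverted prey left out it was -25.8 points, lower in 13 of 13 libraries, a setting that takes away far more motif joins with insertions than blunt ones and so lowers the first share by its construction. Repeat windows held 15.6% ± 17.0 (SD, n = 13) of insertion joins and 5.57% ± 6.11 of blunt joins, and without these windows the difference was -7.59 points (adjusted p = 0.0947, exact test). It also missed the threshold without joins whose prey matched the reference at under 95% of bases (-7.48 points, adjusted p = 0.103, exact test), which were 14.0% ± 9.25 of insertion joins and 3.52% ± 2.85 of blunt joins. It missed it as well without any 1 of replicates 1, 2, 3, 4 or 6 of the CK-666 DMSO controls, at -13.1 to -12.1 points (adjusted p = 0.0557 in each, exact test). Within sequencing runs the mean difference kept its sign in 4 of 6 runs.

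The share of joins with an insertion depended on the prey. It was 5.03% ± 1.39 (SD, n = 13) of direct motif joins, 14.1% ± 1.76 of inverted motif joins and 9.63% ± 4.19 of joins to other prey outside repeat windows and telomeric reads. In the 10 control libraries with 20 or more joins in repeat windows it was 28.5% ± 4.54. The window at chr14:19410000-19419999 held 365 insertion joins of 1255, and that at chr2:98660000-98669999 held 255 of 962. Against joins with 10 to 30 inserted bases the share at motifs differed by -0.34 points (adjusted p = 0.933, exact sign-flip test), lower in 7 of 13 libraries. Without inverted prey, which were nearly all motif joins of the longer class, 11.6% of the longer and 46.8% of the shorter insertions were left at motifs, which is given as a description. On the bait chromosome lay 29.3% ± 4.16 of insertion joins and 30.9% ± 4.30 of blunt joins.

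At the level of single motifs, 358 of 1108 motifs other than the bait held at least 1 join of any class in the control libraries. At least 1 insertion join was found at 243 of them. The 5 with the most insertion joins, all on chromosome 2, held 21.04% of insertion joins at motifs. Each of these 5 also held 1205 to 1695 joins of any class, out of 47901 at motifs. Counts and Wilson intervals at single motifs, here and below, pool joins over the 13 libraries. The intervals cover counting error only and leave out the spread between libraries. The motif chr2:20968930-20968937, intergenic and 49 bp from the nearest start of Arhgap21 (ENSMUSG00000036591), had 189 insertion joins among 1205 joins, 15.7% (95% Wilson interval 13.7 to 17.8), of which 81 were inverted. The motif chr2:153649703-153649710, in an untranslated region of Dnmt3b (ENSMUSG00000027478, a de novo DNA methyltransferase), had 148 of 1211, 12.2% (10.5 to 14.2), of which 86 were inverted. Inverted joins were 42.9% of the insertions at the first motif and 58.1% at the second.

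The other leading motifs held mostly direct insertions. The motif chr2:31974701-31974708, in an intron of Nup214 (ENSMUSG00000001855, a nuclear pore protein), had 143 of 1384, 10.3% (8.84 to 12.05), with 32 inverted. The motif chr2:113847994-113848001, in a coding exon of Arhgap11a (ENSMUSG00000041219), had 143 of 1405, 10.2% (8.70 to 11.9), with 1 inverted. The motif chr2:156144260-156144267, in an untranslated region of Romo1 (ENSMUSG00000067847, a mitochondrial protein), had 132 of 1695, 7.79% (6.61 to 9.16), with 26 inverted. The flanks of the motifs with the most and the fewest inverted insertions among these 5 are given with the motif in capitals.
Dnmt3b motif: ggacccgcggcGCGATCGCggcgccgcgct
Arhgap11a motif: tcatgtctcctGCGATCGCactgaccgcgg
In these pooled counts direct insertions made up 10.1% of joins at Arhgap11a (8.64 to 11.8) and 5.12% at Dnmt3b (4.01 to 6.51). This is the reverse of their order in inverted joins, and the difference between motifs was not tested. Over the 141 motifs with 100 or more joins, insertion joins made up 0.877% to 21.5% with a median of 6.69%, and direct ones 0% to 11.6% with a median of 4.41%.

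With the Cas9 bait, insertion joins took a larger mean share than in 6 AsiSI DMSO libraries, by an amount that 1 library decided. The share in the 3 Cas9 DMSO libraries was 12.3%, 34.2% and 11.7%, and in the 6 AsiSI DMSO libraries of the CK-666 experiment it ran from 5.92% to 11.4%. These 2 groups did not overlap, but the baits did. NU7441 control replicate 1, an AsiSI control library outside this comparison, had 14.8%, above Cas9 DMSO replicates 1 and 3. The difference of means was 10.3 percentage points (exact permutation test, two-sided, p = 0.0119, the smallest that 3 against 6 allow, adjusted p = 0.0298 over 5 measures). Without Cas9 DMSO replicate 2 it was 2.84 points (adjusted p = 0.134, exact test), without replicate 1 13.8 points (adjusted p = 0.0893), without replicate 3 14.1 points (adjusted p = 0.0595), without telomeric joins 4.27 points (adjusted p = 0.0992) and among prey more than 10 kb from any motif 3.18 points (adjusted p = 1). The 1 AsiSI control library sequenced in the same run as the Cas9 libraries had 8.19%. The 3 Cas9 libraries came from 1 sequencing run and the 6 AsiSI libraries from 2 other runs. Cells, break chemistry, time after cutting and sequencing run differ between the groups together and cannot be told apart.

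Few prey of Cas9 insertion joins lay at AsiSI motifs. In Cas9 DMSO replicates 1 and 2 no insertion join lay at a motif, which allows shares of up to 0.965% of 311 and 0.278% of 1080, and in replicate 3 the share was 1.43%. Under CK-666 it was 2.21%, 0.240% and 0.685%. The 6 AsiSI libraries had 42.3% to 75.7%, a difference of -58.4 percentage points. Per the study's methods the Cas9 cells were WT MEFs given a guide to the bait locus. The paper describes their translocations as independent of AsiSI. A low motif share was thus set by the design, and over all retained joins of Cas9 DMSO libraries it was 0.539% to 4.55%. The difference is therefore given without a test. It stayed between -58.9 and -58.2 points without any 1 Cas9 library, and was -58.6 points without telomeric joins.

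Mean insertion length was 2.88, 4.50 and 3.00 bases with Cas9 and 3.31 to 4.18 with AsiSI. The difference of means was -0.08 bases, and it was -0.60 without Cas9 DMSO replicate 2, 0.21 without replicate 1, 0.15 without replicate 3 and 0.05 without AsiSI control replicate 1. Without telomeric joins the means were 3.13 and 3.54 bases, a difference of -0.42. Losses of 10 or more bait bases were found in 6.43% ± 3.75 (SD, n = 3) of Cas9 insertion joins and 12.8% ± 3.34 (n = 6) of AsiSI ones (-6.35 points, adjusted p = 0.0992, exact test), and without telomeric joins the difference was -4.69 points (adjusted p = 0.149, exact test). The G and C share of inserted bases was 46.8% against 54.4% (-7.60 points, adjusted p = 0.179, exact test), and without telomeric joins the difference was -9.48 points (adjusted p = 0.0893, exact test).

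Cas9 bait ends carried the blunt cut. Without telomeric reads, 71.7% ± 2.62 (SD, n = 3) of Cas9 DMSO blunt joins and 35.5% ± 12.5 of insertion joins had lost 0 bait bases. A bait that ran 1 base past the cut was found in 13.3% ± 11.7 of these insertion joins and 2.73% ± 0.586 of these blunt joins, and its share among insertion joins ranged from 5.71% to 26.8% over the 3 libraries. Among their 278 single insertions A made up 32.9% ± 2.59 and T 31.7% ± 5.56.

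With CK-666 neither the share of AsiSI insertion joins nor their share at motifs passed its test. Under CK-666 the shares of replicates 1 to 6 were 10.6%, 5.67%, 13.9%, 8.32%, 6.17% and 8.86%. Their DMSO partners had 7.77%, 9.25%, 11.4%, 9.57%, 5.92% and 11.1%. It was lower in 3 of 6 pairs. The log2 ratio averaged -0.07 with an SD of 0.42 over the pairs (exact test by sign flips, adjusted p = 0.719 over 3 measures). The mean insertion length differed by -0.03 ± 0.10 bases, lower in 3 of 6 pairs. The share of insertion joins at motifs differed by -5.27 ± 10.8 percentage points, lower in 4 of 6 pairs (adjusted p = 0.719, exact test). Over all retained joins the motif share was 72.3% ± 10.2 under CK-666 and 74.6% ± 5.63 under DMSO (SD, n = 6 each). CK-666 replicate 2 holds only 19 insertion joins, and its share has a 95% Wilson interval of 3.66 to 8.69. The smallest unadjusted p that 6 pairs allow is 0.0312.

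With the Cas9 bait the share did not pass either. Shares of 12.4%, 30.7% and 11.5% under CK-666 stood beside 12.3%, 34.2% and 11.7% under DMSO. The log2 ratio averaged -0.06, SD 0.09 over 3 pairs (exact test by sign flips, adjusted p = 0.5). Both replicate 2 libraries were high. Without telomeric joins it averaged 0.05, higher with CK-666 in each of the 3 pairs (adjusted p = 0.5, exact test). The mean length was 3.00, 2.97 and 2.83 bases under CK-666 against 2.88, 4.50 and 3.00 under DMSO, a mean difference of -0.53, or -0.28 without telomeric joins. In pair 2, where the lengths differ by -1.53 bases, 31.5% of DMSO insertions had 6 bases, the length of the telomeric insert shown above. Since 3 pairs cannot give a p below 0.25, the test could not have passed. The difference between the baits in the CK-666 effect on the share was 0.02 in log2 ratio and did not pass its own exact permutation test (adjusted p = 0.94).

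NU7441, which inhibits the kinase of the joining complex, gave shares of 11.3%, 13.8% and 6.32% against 14.8%, 7.99% and 7.19% in its controls. It was lower in 2 of 3 pairs and higher in pair 2 (log2 ratio 0.07 on average, SD 0.63 over 3 pairs, exact test by sign flips, adjusted p = 1). Without telomeric joins the share of NU7441 replicate 2 fell from 13.8% to 7.63%, and the mean log2 ratio was -0.22, lower in 3 of 3 pairs. Insertions were longer with NU7441 in 3 of 3 pairs, at 3.74, 3.66 and 2.86 bases against 3.45, 3.10 and 2.50, a difference of 0.40 ± 0.14 bases (SD, n = 3), or 0.52 without telomeric joins. The share at motifs was 12.8%, 4.44% and 81.3% against 17.2%, 50.3% and 69.0%, with no common direction (-12.6 points, adjusted p = 1, exact test). Without telomeric joins the difference was -9.44 points (adjusted p = 0.75, exact test). Over all retained joins the motif share was 53.7%, 41.5% and 82.9% with NU7441 against 51.6%, 71.5% and 66.8%. None of these NU7441 tests could have passed, since 3 pairs cannot give a p below 0.25.

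For wiskostatin and actin R62D-NLS no test was run, since an exact test on 2 pairs cannot reach the threshold. The share with wiskostatin was 8.07% and 8.96% against 8.03% and 8.19% in its controls. With R62D it was 8.51% and 5.78% against 7.91% and 6.82% with empty vector. Mean lengths were 3.11 and 3.41 bases with wiskostatin against 2.66 and 3.37, and 3.41 and 2.98 with R62D against 2.85 and 3.18. At motifs lay 77.6% and 71.8% of insertion joins with wiskostatin against 63.3% and 73.2%, and 80.2% and 86.0% with R62D against 73.1% and 82.4%. With wiskostatin the share and the length were higher in both pairs, and with R62D the motif share was, and the other measures had no common sign. Over all retained joins the motif share was also higher with R62D, at 77.7% and 87.5% against 69.9% and 84.7%. With wiskostatin the share of all retained joins at motifs was 72.3% and 73.2% against 61.7% and 73.4%.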

How the data were processed

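Joins were taken from the 32 deposited HTGTS junction tables. Per the study's methods, the authors mapped reads to the mm10 genome by BWA, filtered them with the default settings of a public translocation pipeline and kept mapping quality over 30. The deposited columns used are positions of bait and prey in the genome and in the read, with no normalized unit. The 12 Hi-C samples were not used here. Insertion length was the prey start minus the bait end minus 1 in the read. Motifs were found in the GRCm38 reference, and genes come from its GENCODE annotation. Members and lists were chosen with earlier results of these data known; direct and inverted prey were told apart after the values were seen. Motifs named are the 5 with the most insertion joins in the 13 control libraries, and inserts named are the 5 most frequent at 1, 2, 3 and 4 to 9 bases; recurrent joins and end combinations were picked by frequency, with no sequence from chromosome 18.

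Each library gave 1 value per measure. Replicate numbers in the labels set the pairs of treatment and control; each pair shared a sequencing run. Deviations of join density in 1 Mb windows correlated within pairs at a mean of 0.252 (CK-666, lowest 0.0248), 0.567 (NU7441) and 0.617 (Cas9), so the numbers may not pair the CK-666 libraries; the unpaired test gave no call either. Exact sign-flip or label permutation tests were two-sided with Benjamini-Hochberg adjustment within a contrast, at a threshold of 0.05. Mean length, which chose the joins, and the Cas9 against AsiSI motif share were among the measures adjusted over but are reported without a p. Python 3.11, numpy, pandas and scipy were used, and the test functions were tested on values with known answers. Alternatives covered duplicate counting, length and distance limits, repeat windows, libraries and, chosen after seeing the data, telomeric, mismatched and inverted joins.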

Additional observations from a re-analysis of the deposited data

Results flagged for a closer look

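In the CK-666 group of 6 AsiSI libraries, replicate 2 lay apart in the share of motif insertion joins that lost 10 or more prey bases, at 30% against 12.3% to 18.2% in the other 5. It rests on 3 of 10 joins. Among the 6 matching DMSO controls, replicate 1 lay apart in mean insertion length, at 4.18 bases against 3.31 to 3.61. Each value was farther from its nearest neighbour than Dixon's 95% limit allows. For each of the 12 measures looked at, chance gives such a value in about 1 of 20. Finding any such value among all 12 by chance is more likely than that.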

How the results depend on the processing

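The differences of the share of insertion joins between treatments are log2 ratios, those of length are in bases and the others in percentage points. Telomeric, mismatched and inverted joins were left out as alternatives chosen after seeing the data. Apart from leaving out single libraries, 136 recomputed values kept their direction and side of the threshold. Another 22 were no longer past it, 4 came past it and 21 changed sign. These counts include length, the Cas9 against AsiSI motif share and the settings without inverted prey, by the same test.

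Cas9 against AsiSI, share of insertion joins: no longer past the threshold at 9.90 with identical joins counted once, 8.20 at 2 to 9 bases, 6.66 without repeat windows, 3.18 with prey over 10 kb from a motif, 4.27 without telomeric joins, 10.3 without bait mismatches and 8.53 without prey under 95% identity. The motif share difference, a description, was -58.3 with identical joins counted once, -56.0 at 2 to 9 bases and -72.6 without repeat windows. It was -58.6 without telomeric joins, -62.1 without bait mismatches and -68.5 without prey under 95% identity. The length difference changed sign to 0.20 with all 13 control libraries, 0.0120 without bait mismatches and 0.40 without inverted prey. Repeat windows were chosen by their joins in the Cas9 libraries, so leaving them out weighs more on the Cas9 side by its construction. The values without repeat windows are therefore no even comparison of the baits.

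Insertion against blunt joins, share at motifs: no longer past the threshold at -7.59 without repeat windows, -16.9 in the 6 CK-666 controls alone, -10.4 without bait mismatches and -7.48 without prey under 95% identity. Prey losses of 10 or more were -4.29 without repeat windows, -7.51 in the 6 controls and -4.16 without bait mismatches, none past the threshold, and changed sign to 0.389 under 50 bp from a motif and 8.71 without inverted prey. Bait losses came past the threshold at -3.60 for 2 to 9 bases and changed sign to 2.60 at 5 or more bases lost and 1.53 without inverted prey. Against 10 to 30 bases the motif share changed sign to 0.111 with identical joins counted once, 3.35 without repeat windows, 33.1 under 50 bp and 35.2 without inverted prey, where few motif joins of the longer class are left, and came past the threshold at -7.35 without prey under 95% identity.

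Motif against other prey: the G and C difference was no longer past the threshold at 2.10 under 50 bp. It was 1.72 without inverted prey, which is given as a description. The length difference changed sign to 0.22 at 2 to 9 bases, 0.0736 with joins near the bait, 0.0534 without bait mismatches and 0.20 without prey under 95% identity, and was -1.16 under 50 bp and -1.26 without inverted prey.

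Treatments: the NU7441 share changed sign to -0.0913 without repeat windows and -0.22 without telomeric joins, the Cas9 CK-666 share to 0.0186 and 0.0453, and the AsiSI CK-666 share to 0.0309 and length to 0.0816 without inverted prey. Without the pairing (no replicate block) no call changed. The CK-666 share kept its -0.07 with adjusted p = 0.816 (exact permutation test). The cause of these changes was not tested.

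Leaving out 1 library or pair in turn gave the following ranges. Cas9 against AsiSI ran from 2.84 to 14.1 for the share, -61.7 to -55.0 for the motif share, -0.60 to 0.21 for length, -13.6 to -4.33 for G and C and -8.51 to -5.22 for bait losses. Against blunt joins the motif share ran from -14.4 to -10.2, bait losses from -1.86 to -0.82 and prey losses from -5.26 to -3.70, and against 10 to 30 bases the motif share ran from -2.89 to 0.882. Motif against other prey ran from 9.39 to 11.3 for G and C and -0.22 to -0.04 for length. CK-666 with AsiSI ran from -0.18 to 0.0525 for the share, turning positive without pair 2, from -0.0510 to 0.00027 for length, turning without pair 4, and from -8.86 to -2.66 for the motif share. NU7441 ran from -0.29 to 0.30 for the share and -25.1 to 3.96 for the motif share, both turning without pair 2, and from 0.33 to 0.46 for length. CK-666 with Cas9 ran from -0.10 to -0.0067 for the share and -0.85 to -0.03 for length. Libraries with few insertion joins limit the precision of shares, most of all CK-666 replicate 2 with 19.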
